A study of Mus musculus with 12 samples.

Results

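The 53 genes described here encode the machinery of G2 and M phase, from the kinases that start mitosis to the proteins that separate the chromosomes and the daughter cells. They were taken by name from a list of G2 and M phase genes. The list uses no measured value as a criterion, but it was drawn up with earlier results of these data known. All 53 were found among the 21671 genes of the expression table. All 53 also passed the filter on low values that left 9745 genes for testing. For the description they were sorted by textbook role into 8 groups, namely mitotic entry regulators (10 genes), the chromosomal passenger complex (4), the spindle assembly checkpoint (5), anaphase control (5), centromere and kinetochore (9), spindle motors and microtubule proteins (8), central spindle and cytokinesis (6), and condensin and mitotic chromosome proteins (6).

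The genes were measured by RNA-seq of FL MycER cells, with 3 biological replicates in each of 4 conditions. FL5.12 is an interleukin 3-dependent prolymphocytic line from BALB/c mice, and in all 12 libraries the cells carried MycER, a MYC-estrogen receptor chimera that was expressed constitutively from a retrovirus in a selected pool and is activated by 4-hydroxytamoxifen (OHT). The conditions were untreated cells (untreated), cells kept in 100 nM OHT for 72 h (OHT), cells without OHT that received IACS-010759, an inhibitor of complex I of the electron transport chain, at 135 nM over 24 h (IACS), and OHT_IACS cells, which had a priming of 48 h in OHT and then both agents for 24 h. The study asked how MYC activity changes the response of B cells to inhibition of respiration. Parental cells without MycER were not analysed here, so effects of OHT that do not pass through MycER cannot be told apart from those that do.

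In dividing cells these genes are transcribed in a wave that peaks in G2 and M phase. They are held down earlier in the cycle by the DREAM complex, in which MuvB proteins pair with E2F4 and a pocket protein, and are switched on later by MuvB with B-MYB (*Mybl2*) and FOXM1. Many of their promoters hold a CHR element, bound through MuvB, and CCAAT boxes, bound by NF-Y. Cyclin B with CDK1 drives entry into mitosis, the kinetochores and the spindle checkpoint control when the anaphase-promoting complex (APC/C) acts, and the central spindle guides cytokinesis. MYC and MAX bind the E-box CACGTG.

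The RefSeq promoter windows (GRCm38.p6, 250 bases before to 50 after the start of the gene) matched 44 of the 53 genes by symbol. On either strand, TTTGAA, the core of the CHR element, was found in 31 of these 44 promoters (70.5%), against 20.2% of the promoters of all genes and 14% of those of the matched genes tested here. In 28 genes it began within 50 bases of the start. CCAAT was found in 33 (75%), against 41.1% of all promoters and 43.4% of those of the matched genes tested. Both sets of letters were found in 27 (61.4%), against 8.97% and 7.05%. The E-box CACGTG was found in 2 of the 44 promoters (4.55%), those of *Espl1* and *Ttk*, against 8.09% of all promoters and 12.5% of those of the matched genes tested. The 120 bases before the start are shown for the 4 genes that passed the test in some comparison and had TTTGAA in that stretch. They are written 5′ to 3′ on the strand of the gene, and capitals mark TTTGAA (the CHR core) or CCAAT, or the reverse complement of either. The stretch of *Espl1* is chr15:102296173-102296292 on the plus strand, that of *Cdca5* chr19:6084977-6085096 on the plus strand, that of *Cdk1* chr10:69352913-69353032 on the minus strand, and that of *Ncapg* chr5:45669805-45669924 on the plus strand.
Espl1: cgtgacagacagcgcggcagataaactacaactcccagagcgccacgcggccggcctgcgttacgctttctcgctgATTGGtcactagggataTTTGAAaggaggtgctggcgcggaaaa
Cdca5: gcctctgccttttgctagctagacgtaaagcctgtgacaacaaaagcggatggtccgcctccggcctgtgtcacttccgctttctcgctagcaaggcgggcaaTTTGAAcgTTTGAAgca
Cdk1: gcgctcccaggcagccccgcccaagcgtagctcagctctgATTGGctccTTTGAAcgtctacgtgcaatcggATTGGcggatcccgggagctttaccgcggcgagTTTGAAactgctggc
Ncapg: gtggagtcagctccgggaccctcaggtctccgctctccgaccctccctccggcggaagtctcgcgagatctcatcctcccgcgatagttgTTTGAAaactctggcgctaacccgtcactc
All 4 had TTTGAA within their last 50 printed bases, *Cdca5* and *Cdk1* had it a second time, and *Espl1* and *Cdk1* also had the reverse complement of CCAAT upstream of it. A match of letters is a description of the window and was not tested as a binding site. *Espl1* rose with OHT in both comparisons of OHT, *Cdk1* rose with OHT alone, and *Cdca5* fell with IACS-010759 with and without OHT, and *Ncapg* fell with it in primed cells, as described below with their values.

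Levels are given as RPKM, that is, reads divided by the length of the gene and by the total of the library, with a scale factor per library from the median ratio over all genes. The total by which reads had been divided ran from 10376530 to 14550158 per library, with 4199266 to 5762340 reads on genes. The smallest totals were those of OHT replicates 1 and 3. All 12 pairs of replicates differed by more than sampling noise, with a chi-square per gene of 1.08 to 1.88 beside 1 for noise alone (genes under 0.1 reads per base). Of 15 genes listed as markers of B-lineage progenitors, 3 (*Cd79a*, *Cd79b* and *Ptprc*) reached an RPKM of 1 in any library. Their mean RPKM in untreated cells was 1.00, 2.98 and 17.4, so that most of it was that of *Ptprc*. *Pax5*, *Vpreb2*, *Rag1*, *Dntt*, *Il7r* and *Blnk* were listed at 0 in every library.

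The mitosis and spindle genes were expressed at similar levels in all 4 conditions. In untreated cells their mean RPKM ran from 8.48 to 62.0 with a median of 20.7, against a median of 9.09 over the genes tested. The lowest count of any of them in a library was 100 reads and the highest 7584, so that no value rested on few reads. The ratio between the highest and the lowest condition mean had a median of 1.14, from 1.02 for *Nuf2* to 1.47 for *Espl1*. It was under 1.2 for 43 of the 53 genes (81.1%), against 44.5% of all genes tested, and reached 1.3 for 3 genes. The SD between replicates, on the log2 scale, had a median of 0.071, against 0.095 over the genes tested. The highest condition mean was that of OHT for 26 genes and that of untreated cells for 17, and the lowest was that of OHT_IACS for 24 and that of IACS for 19.

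**Figure D1:**
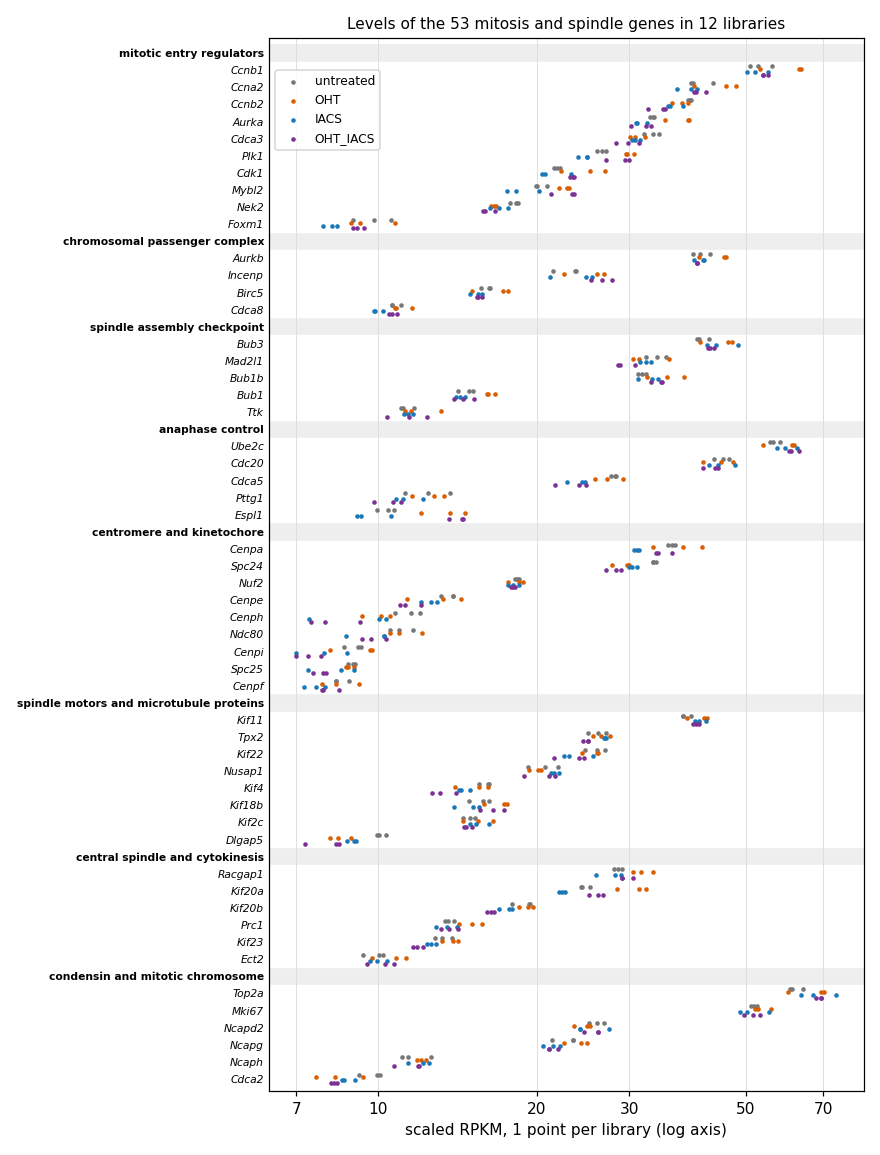
Scaled RPKM (log axis) of each of the 53 genes, with 1 point per library and colours for the 4 conditions, grouped by role and ordered by the untreated mean. The 4 conditions lie close together for most genes, from *Top2a* at 62.0 in untreated cells down to *Cenpf* at 8.48, and *Espl1* shows the widest separation, with a ratio of 1.47.

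**Figure D2:**
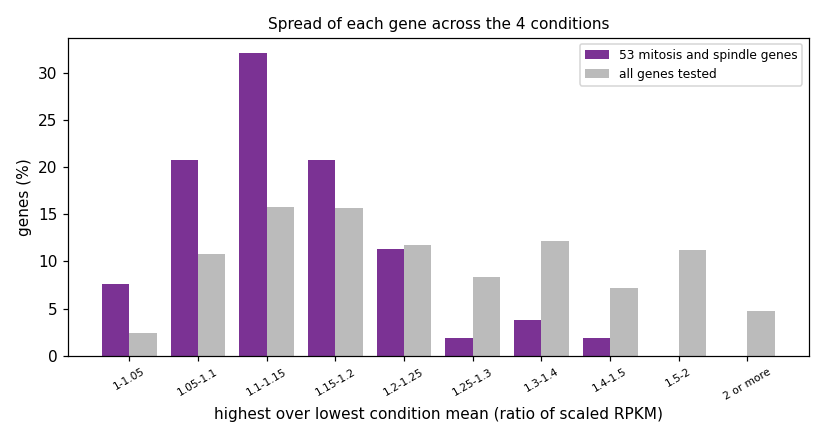
Percent of genes (y axis) by the ratio of the highest to the lowest condition mean (x axis), for the 53 mitosis and spindle genes (purple) and all 9745 genes tested (grey). No gene of the 53 reached 1.5, against 11.2% of the genes tested between 1.5 and 2 and 4.74% at 2 or more.

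With OHT alone, a few genes of mitotic entry, chromosome separation and cytokinesis were slightly higher than in untreated cells, and others were lower. Tests were those of limma on log2(RPKM + 0.1), two-sided, with the 12 libraries fitted together and p-values adjusted over all genes tested by Benjamini-Hochberg, and a gene with an adjusted p under 0.05 is called a DEG. Between OHT and untreated cells, 12 of the 53 genes were DEGs (22.6%), below the 36.4% of all genes tested (18.2% higher and 18.2% lower). Of these, 8 rose (*Cdk1*, *Plk1*, *Aurka*, *Mybl2*, *Bub1*, *Espl1*, *Kif20a* and *Racgap1*) and 4 fell (*Nek2*, *Spc24*, *Dlgap5* and *Cdca2*). This split of 8 and 4 depended on the scaling, with 5 higher and 8 lower after quantile normalization, 11 and 2 with RPKM as deposited, and 2 and 2 with the log2 of the library total as a covariate. Of all genes tested, 38.5%, 36.4% and 24.1% were DEGs in these fits. The libraries of the 2 conditions did not overlap for 14 genes (26.4%), against 46% of all genes tested. In bulk RNA, fewer cells in a phase of the cycle and less RNA per cell cannot be told apart.

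The largest rise was that of *Espl1*, which encodes separase, the protease that cuts cohesin at anaphase. Its RPKM was 9.96, 10.4 and 10.7 in untreated cells, 12.1, 14.6 and 13.7 with OHT, 9.30, 9.12 and 10.6 with IACS and 14.5, 14.4 and 13.6 with OHT_IACS. All 3 libraries with OHT alone lay above all 3 untreated ones, by a log2 change of 0.37 ± 0.07 (SE, 1.29-fold, adjusted p = 0.00144). *Kif20a*, a kinesin of the central spindle needed for cytokinesis, had an RPKM of 25.3, 24.4 and 24.3 in untreated cells, 32.3, 28.5 and 31.3 with OHT, 22.4, 22.1 and 22.7 with IACS and 26.1, 26.7 and 25.1 with OHT_IACS. It too was higher in every OHT library than in every untreated one, with a log2 change of 0.31 ± 0.05 (SE, 1.24-fold, adjusted p = 0.000363). In GENCODE vM21 the exons of 12 of the 53 genes overlap those of another gene, among them *Kif20a* (with *Cdc23*), *Kif4*, *Ncapg* and *Nek2*, each with a gene on the other strand, and *Foxm1*, with genes on the same strand. The libraries were strand-specific, and the strand setting of the counting was not given in the sources used here.

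Among the 4 genes that fell, *Dlgap5*, which encodes the microtubule-bundling protein HURP, changed most. It had an RPKM of 9.97, 10.4 and 10.04 in untreated cells, 8.41, 8.88 and 8.10 with OHT, 9.01, 9.09 and 8.74 with IACS and 8.31, 7.25 and 8.41 with OHT_IACS. The OHT libraries lay below all untreated ones, with a log2 change of -0.26 ± 0.06 (SE, adjusted p = 0.00492). *Cdca2* encodes Repo-Man, which targets protein phosphatase 1 to chromatin. Its RPKM was 9.19, 10.1 and 9.94 in untreated cells, 7.63, 9.34 and 8.27 with OHT, 9.05, 8.62 and 8.55 with IACS and 8.23, 8.35 and 8.14 with OHT_IACS, and although it passed the test (log2 change -0.21 ± 0.07 SE, adjusted p = 0.0250), OHT replicate 2 overlapped the untreated libraries. *Spc24*, a subunit of the NDC80 complex of the outer kinetochore, had an RPKM of 33.7, 33.3 and 33.2 in untreated cells, 29.7, 27.8 and 29.95 with OHT, 30.99, 29.9 and 30.3 with IACS and 28.3, 27.2 and 28.97 with OHT_IACS. No OHT library reached the lowest untreated one, and the log2 change was -0.20 ± 0.05 (SE, adjusted p = 0.00424).

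Over all 53 genes the median log2 change with OHT was 0.05, with 35 positive and 18 negative, and the median over the genes tested was 0.01. The number of DEGs depended on single libraries. It was 21 without OHT replicate 2, but 6 without OHT replicate 1, 5 without OHT replicate 3, 5 without untreated replicate 2 and 6 without untreated replicate 3. In the same order, 42.3%, 31.7%, 27.5%, 27.9% and 27.2% of all genes tested were DEGs. *Espl1*, *Kif20a* and *Spc24* passed the test in each of 19 alternative analyses and the other 9 DEGs in 9 to 18 of them. With OHT the summed RPKM of 9 macrophage and granulocyte markers (8 of them in the table and 6 reaching an RPKM of 1) also moved, from 79.0 to 89.7 in untreated libraries to between 37.7 and 41.9 with OHT, 81.3 and 90.4 with IACS, and 44.3 and 45.6 with OHT_IACS, and the part of this in the values above was not tested. The members of that list did not move together. Of 5 that were tested, *S100a8*, *S100a9* and *Mpo* fell with OHT and *Emr1* rose. The other, *Lyz2*, reached an RPKM of 1 only in the libraries without OHT, so that its call is not given. *S100a8* went from an RPKM of 23.4 ± 3.43 to 3.74 ± 1.38 and *S100a9* from 27.2 ± 1.63 to 4.14 ± 1.00 (SD, n = 3), while *Emr1* went from 16.7 ± 0.072 to 20.5 ± 0.281 and was at 27.3 ± 1.17 with OHT_IACS.

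**Figure D3:**
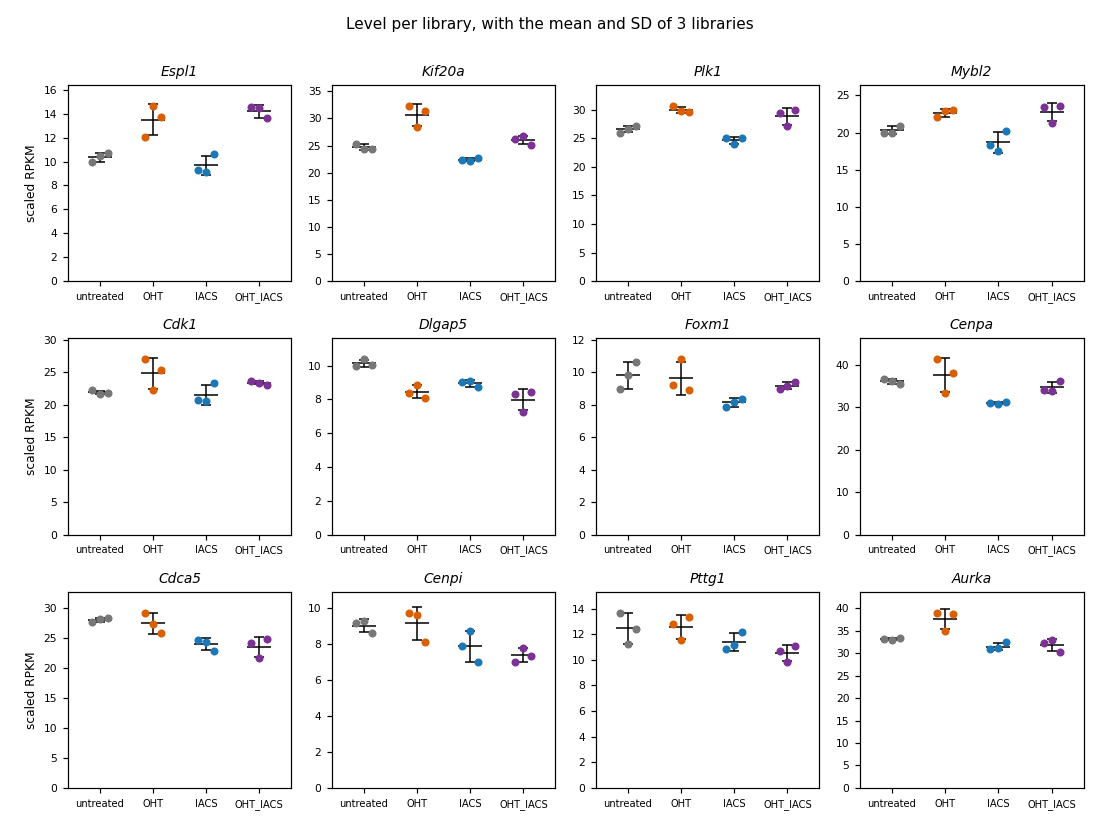
Scaled RPKM per library (y axis, from 0) in the 4 conditions (x axis) for 12 genes, with the mean (wide line) and SD (error bars) of 3 libraries. *Espl1* is higher in both conditions with OHT, *Kif20a* is highest with OHT alone, and the 3 IACS libraries of *Foxm1* and *Cenpa* lie below all untreated libraries.

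IACS-010759 without OHT lowered 3 genes, *Foxm1*, *Cdca5* and *Cenpa*, and raised none. These 3 DEGs are 5.66% of the 53 genes, against 15.9% of all genes tested (8.15% higher and 7.74% lower). *Foxm1* encodes a transcription factor that activates G2 and M phase genes. Its RPKM was 8.96, 9.82 and 10.6 in untreated cells, 9.23, 10.8 and 8.88 with OHT, 7.85, 8.18 and 8.36 with IACS and 8.98, 9.13 and 9.40 with OHT_IACS. The IACS libraries were the lowest of the 4 conditions and did not overlap with the untreated ones, with a log2 change of -0.26 ± 0.07 (SE, adjusted p = 0.0287). *Cdca5* encodes sororin, which keeps sister chromatids together until anaphase. Its RPKM was 27.6, 28.1 and 28.3 in untreated cells, 29.2, 27.3 and 25.8 with OHT, 24.7, 24.4 and 22.8 with IACS and 24.1, 21.7 and 24.8 with OHT_IACS. Each IACS library lay below each untreated library, with a log2 change of -0.23 ± 0.06 (SE, adjusted p = 0.0201). *Cenpa*, the histone H3 variant that marks centromeres, had an RPKM of 36.6, 36.1 and 35.5 in untreated cells, 41.2, 33.3 and 37.9 with OHT, 31.02, 30.7 and 31.3 with IACS and 33.95, 33.8 and 36.2 with OHT_IACS. The IACS libraries were close together and lower than those of all other conditions, with a log2 change against untreated cells of -0.22 ± 0.07 (SE, adjusted p = 0.0361).

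Most of the other genes also had a negative log2 change with IACS alone, without passing the test. The change was negative for 41 of 53 (77.4%), against 49.0% of all genes tested, with a median of -0.07 against 0.00. An unadjusted p under 0.05 was reached by 16 genes, against 30.5% of those tested. The libraries did not overlap for 19 genes (35.8%), 18 of which were lower with IACS, against 38.6% of all genes tested. The 3 calls were not stable: none was left without IACS replicate 3, without untreated replicate 2 or without untreated replicate 3, and 1 was left without IACS replicate 1 or without untreated replicate 1. *Cdca5* passed in 14 of 19 alternative analyses and *Foxm1* and *Cenpa* in 11 each.

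In OHT-primed cells IACS-010759 lowered 10 genes and raised none. The 10 DEGs between OHT_IACS and OHT are 18.9% of the 53 genes, against 23.7% of all genes tested (11.9% higher and 11.8% lower). They were *Aurka*, *Bub1*, *Pttg1*, *Cdca5*, *Cenpi*, *Kif4*, *Kif20a*, *Kif20b*, *Kif23* and *Ncapg*. The largest change was that of *Cenpi*, a subunit of the inner kinetochore. Its RPKM was 9.15, 9.30 and 8.63 in untreated cells, 9.75, 9.65 and 8.12 with OHT, 7.90, 8.72 and 6.996 with IACS and 6.998, 7.80 and 7.35 with OHT_IACS. The OHT_IACS libraries lay below those of OHT, with a log2 change of -0.31 ± 0.09 (SE, adjusted p = 0.0203). *Pttg1* encodes securin, which holds separase inactive until anaphase, and had an RPKM of 13.7, 11.3 and 12.4 in untreated cells, 12.8, 11.6 and 13.4 with OHT, 10.8, 11.1 and 12.2 with IACS and 10.7, 9.82 and 11.1 with OHT_IACS. All 3 OHT_IACS libraries lay below the OHT libraries, with a log2 change of -0.25 ± 0.08 (SE, adjusted p = 0.0299). *Aurka*, the kinase of centrosome maturation and spindle assembly, had an RPKM of 33.2, 32.8 and 33.5 in untreated cells, 39, 35.03 and 38.8 with OHT, 30.95, 31.1 and 32.4 with IACS and 32.2, 32.9 and 30.3 with OHT_IACS. It was higher in the 3 OHT libraries than in any other, so that it rose with OHT (log2 change 0.18 ± 0.05 SE, adjusted p = 0.0174) and fell when IACS-010759 was added (-0.24 ± 0.05 SE, adjusted p = 0.00582).

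Of the 6 central spindle and cytokinesis genes, 3 fell in this comparison (50%, against 11.8% of all genes tested), all kinesins. *Kif20a* had a log2 change of -0.24 ± 0.05 (SE) between the levels given above (adjusted p = 0.00488). *Kif20b*, a kinesin involved in the completion of cytokinesis, had an RPKM of 19.4, 19.4 and 17.97 in untreated cells, 19.3, 18.6 and 19.7 with OHT, 17.99, 17.7 and 16.98 with IACS and 16.1, 16.4 and 16.6 with OHT_IACS. *Kif23* encodes MKLP1, which forms the centralspindlin complex together with RACGAP1, and had an RPKM of 13.8, 13.3 and 12.8 in untreated cells, 13.2, 13.9 and 14.2 with OHT, 12.6, 12.4 and 12.9 with IACS and 11.9, 11.6 and 12.2 with OHT_IACS. For both genes the 3 OHT_IACS libraries were the lowest of all 12, with log2 changes of -0.23 ± 0.05 (SE, adjusted p = 0.00366) and -0.21 ± 0.05 (SE, adjusted p = 0.00569). *Racgap1*, by contrast, did not pass the test here (log2 change -0.10 ± 0.05 SE).

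An unadjusted p under 0.05 was reached by 18 of the 53 genes, against 37.2% of the genes tested. Of all 53, 46 (86.8%) had a negative log2 change between OHT_IACS and OHT, against 53.4% of the genes tested, with a median of -0.08 against -0.01. The libraries of 17 genes (32.1%) did not overlap, all lower with OHT_IACS, against 36.9% of the genes tested. The count of 10 DEGs became 16 without OHT replicate 2 and 6 without OHT replicate 3, without OHT_IACS replicate 1 or without OHT_IACS replicate 2. Of all genes tested, 30.3%, 16.5%, 17.1% and 17.8% were DEGs in these fits. *Aurka*, *Kif20a*, *Kif20b* and *Kif23* passed the test in all 19 alternative analyses and the other 6 DEGs in 8 to 16 of them. Quantile normalization gave 2 higher and 11 lower, and the covariate of the library total 2 higher and 17 lower, the 2 higher ones being *Top2a* and *Ube2c* in both. These fits called 25.2% and 28.5% of all genes tested. *Cdca5* was the only gene of the 53 that was a DEG with IACS-010759 both without OHT and in primed cells (log2 change -0.22 ± 0.06 SE, adjusted p = 0.0170). These 2 comparisons share no library, whereas the OHT libraries enter both the comparison with untreated cells and that with OHT_IACS.

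The 4 genes that differed between OHT_IACS and IACS, that is, with OHT in the presence of IACS-010759, were all higher, and all 4 had also risen with OHT alone. They are 7.55% of the 53 genes, against 26.5% of all genes tested (12.3% higher and 14.2% lower). *Espl1* had the largest difference of any of the 53 genes in any comparison, with a log2 change of 0.55 ± 0.07 (SE, 1.47-fold, adjusted p = 0.000108), and its 3 OHT_IACS libraries lay well above the 3 IACS libraries. *Kif20a* was higher by 0.22 ± 0.05 (SE, adjusted p = 0.00652). *Mybl2* encodes B-MYB, the partner of MuvB in the activation of G2 and M phase genes. Its RPKM was 19.97, 20 and 20.9 in untreated cells, 22.1, 22.9 and 23.03 with OHT, 18.3, 17.6 and 20.3 with IACS and 23.4, 21.3 and 23.6 with OHT_IACS. Both conditions with OHT lay above both without it, by a log2 change of 0.16 ± 0.06 (SE) between OHT and untreated cells (adjusted p = 0.0456) and 0.28 ± 0.06 (SE) between OHT_IACS and IACS (adjusted p = 0.00254). *Plk1*, the Polo-like kinase that acts at centrosomes, kinetochores and the central spindle, had an RPKM of 26, 26.6 and 27.1 in untreated cells, 30.6, 29.7 and 29.6 with OHT, 24.96, 23.98 and 24.98 with IACS and 29.4, 27.1 and 29.99 with OHT_IACS. All OHT_IACS libraries exceeded all IACS libraries, with a log2 change of 0.22 ± 0.05 (SE, adjusted p = 0.00319), beside 0.18 ± 0.05 (SE) for OHT alone (adjusted p = 0.0106).

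These 4 calls were kept in all 19 alternative analyses, but some analyses also called genes that were lower. There were 5 higher and 4 lower after quantile normalization, 8 and 7 with array weights (a weight per library estimated by limma), and 5 and 6 with the library total as covariate. The median log2 change of the 53 genes between OHT_IACS and IACS was 0.00, as for all genes tested, with 25 positive and 28 negative. The libraries of 19 genes (35.8%) did not overlap, 9 higher and 10 lower, against 42.3% of the genes tested, and 13 had an unadjusted p under 0.05, against 37.8%.

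**Figure D4:**
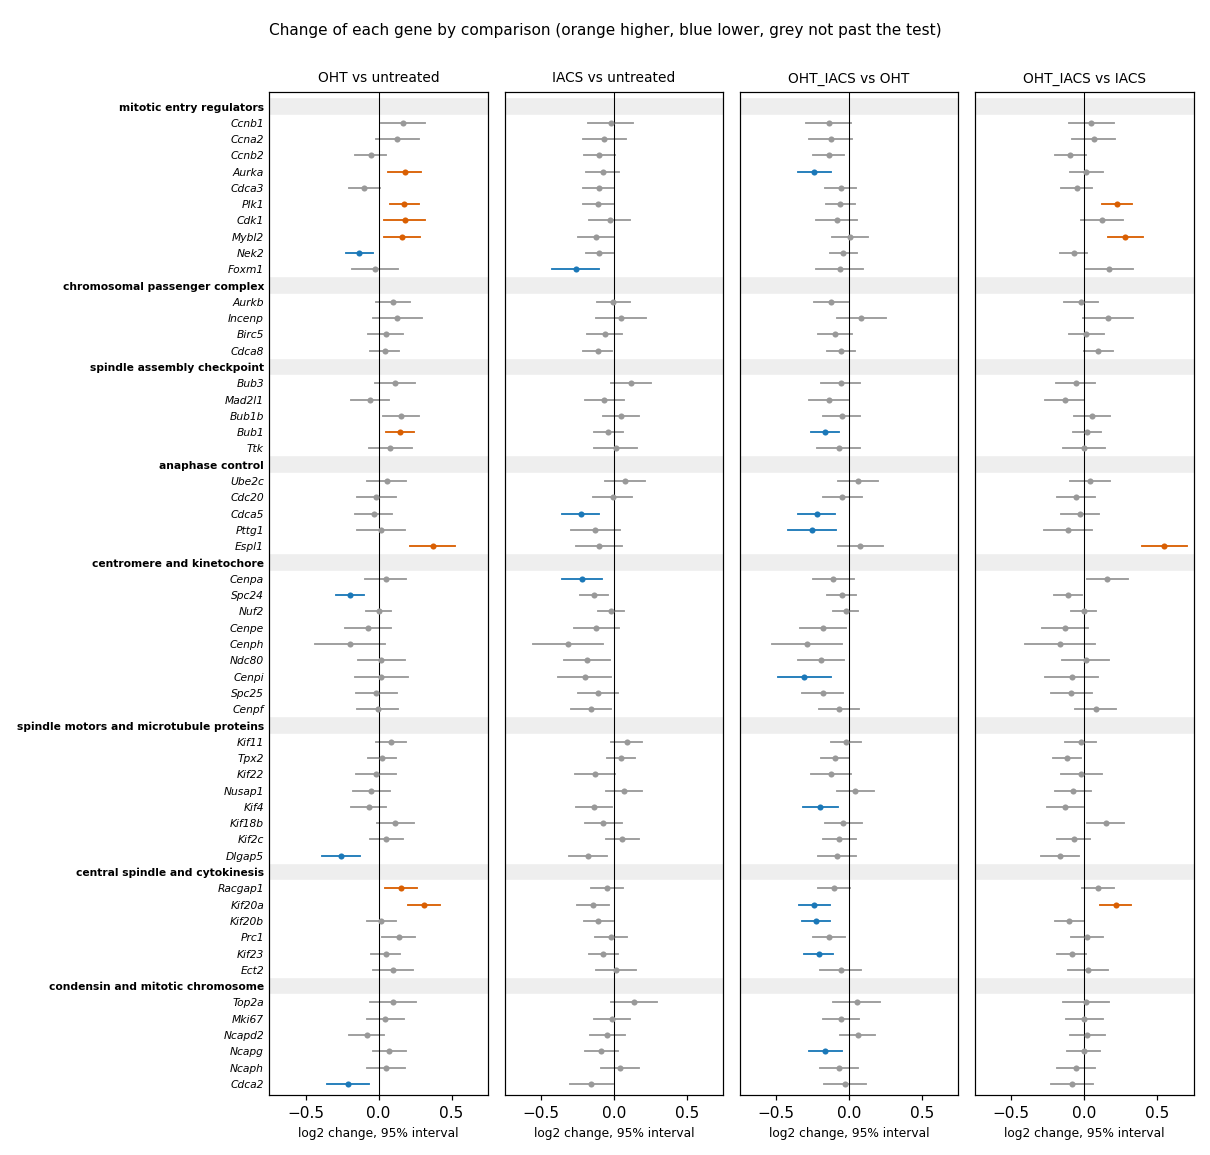
log2 change (x axis, points) with its 95% interval (lines) for each of the 53 genes, by role, in 4 comparisons from limma; orange genes are higher and blue genes lower at an adjusted p under 0.05, grey genes did not pass. Blue and orange points are spread over the roles with OHT, 3 points are blue with IACS alone, 10 are blue in OHT-primed cells given IACS-010759, and 4 are orange between OHT_IACS and IACS.

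Whether priming with OHT altered the response to IACS-010759 was tested with the interaction term, the log2 change of OHT_IACS against OHT minus that of IACS against untreated cells. With limma, none of the 53 genes passed (14 of all genes tested did, 0.144%), 2 had an unadjusted p under 0.05 and the smallest adjusted p was 0.367. With limma voom on reads recovered from the RPKM none passed, and with array weights 4 passed (*Foxm1* higher, *Aurka*, *Kif2c* and *Tpx2* lower), or 7.55%, against 10.9% of all genes tested in that analysis. The 95% interval of the interaction lay within 0.5 of 0 on the log2 scale for all 53 genes, against 76.5% of all genes tested. Among the 53 the lowest bound was -0.37 and the highest 0.42. The median was -0.06, against -0.01 for all genes tested.

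The smallest p-values were those of *Tpx2*, *Aurka*, *Kif23* and *Bub1*, and in all 4 the log2 change with IACS-010759 was lower in primed cells. *Tpx2*, which activates Aurora A on spindle microtubules, had an RPKM of 27.2, 26.1 and 25.1 in untreated cells, 26.6, 25.6 and 27.5 with OHT, 27.1, 26.9 and 27.01 with IACS and 25.1, 24.5 and 25 with OHT_IACS. Its interaction was -0.14 ± 0.06 (SE, 95% interval -0.28 to -0.01, adjusted p = 0.367). *Bub1*, a kinase of the spindle checkpoint, had an RPKM of 15.1, 14.9 and 14.2 in untreated cells, 16.2, 16.1 and 16.7 with OHT, 14.3, 14.6 and 14.1 with IACS and 13.9, 14.5 and 15.2 with OHT_IACS. It was highest in the 3 OHT libraries, with an interaction of -0.13 ± 0.06 (SE, adjusted p = 0.447). For *Aurka* and *Kif23* the interaction was -0.16 ± 0.07 (SE, adjusted p = 0.379) and -0.14 ± 0.06 (SE, adjusted p = 0.409).

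Among the 10 mitotic entry regulators, 4 rose and 1 fell with OHT, 1 fell with IACS alone, 1 fell with IACS-010759 in primed cells and 2 were higher in OHT_IACS than in IACS. With OHT these are 40% higher and 10% lower, against 18.2% of all genes tested in each direction. The 10% lower in each comparison of IACS-010759 stands beside 7.74% without OHT and 11.8% in primed cells, and the 20% higher between OHT_IACS and IACS beside 12.3%. Their median log2 change with OHT was 0.14. *Ccnb1*, which encodes cyclin B1, the partner of CDK1 at mitotic entry, had an RPKM of 55.95, 52.7 and 50.9 in untreated cells, 63.6, 53.02 and 63.1 with OHT, 51.97, 50.3 and 54.96 with IACS and 54.9, 53.9 and 53.8 with OHT_IACS. OHT replicates 1 and 3 were the highest of all 12 libraries and OHT replicate 2 lay among the untreated ones, and the log2 change with OHT of 0.17 ± 0.07 (SE) did not pass (adjusted p = 0.0826). *Cdk1*, the kinase itself, had an RPKM of 22.2, 21.6 and 21.8 in untreated cells, 26.96, 22.3 and 25.3 with OHT, 20.7, 20.5 and 23.3 with IACS and 23.6, 23.4 and 23.1 with OHT_IACS. Its rise with OHT (0.18 ± 0.07 SE, adjusted p = 0.0473) was just past the threshold and did not pass without OHT replicate 1 (adjusted p = 0.178), without OHT replicate 3 (0.128) or without any single untreated replicate (0.0832 to 0.119). Over the 19 alternatives its adjusted p ran from 0.00052 to 0.817. *Nek2*, a centrosomal kinase, fell with OHT, with a log2 change of -0.13 ± 0.04 (SE, adjusted p = 0.0268). *Ccna2*, *Ccnb2* and *Cdca3* (cyclin A2, cyclin B2 and a factor in the breakdown of WEE1) passed in no comparison, with log2 changes between -0.14 and 0.13.

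None of the 4 genes of the chromosomal passenger complex passed in any comparison. This complex corrects the attachment of chromosomes to the spindle and later acts in cytokinesis. *Aurkb*, its kinase, had an RPKM of 42.6, 39.6 and 40.9 in untreated cells, 45.4, 40.7 and 45.7 with OHT, 41.4, 39.9 and 41.5 with IACS and 40.3, 40.4 and 40.3 with OHT_IACS. The log2 changes of *Aurkb*, *Birc5* (survivin), *Incenp* and *Cdca8* (borealin) lay between -0.12 and 0.16, and all their 95% intervals in the 4 comparisons between -0.24 and 0.33.

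Of the 5 spindle assembly checkpoint genes, only *Bub1* passed a test, rising with OHT (0.15 ± 0.05 SE, adjusted p = 0.0230) and falling with IACS-010759 in primed cells (-0.16 ± 0.05 SE, adjusted p = 0.0198). That is 20% of the group in each comparison, beside 18.2% higher and 11.8% lower among all genes tested. *Bub1b* encodes BUBR1, a part of the complex that inhibits the APC/C. Its RPKM was 31.2, 31.7 and 32.3 in untreated cells, 35.4, 32.5 and 38.1 with OHT, 33.2, 31.2 and 34.1 with IACS and 34.6, 33.1 and 34.4 with OHT_IACS, and its log2 change with OHT of 0.15 ± 0.06 (SE) did not pass (adjusted p = 0.0560). *Bub3*, *Mad2l1* (MAD2) and *Ttk* (the kinase MPS1) had log2 changes between -0.14 and 0.12.

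Over the 4 comparisons, anaphase control had the widest range of log2 changes of the 8 groups, from -0.25 to 0.55. *Espl1* rose with OHT while its inhibitor *Pttg1* did not pass with OHT (log2 change 0.02 ± 0.08 SE) and fell with IACS-010759 in primed cells. *Cdca5* fell with IACS-010759 in both settings. *Cdc20*, which activates the APC/C at the end of metaphase, had an RPKM of 46.5, 43.4 and 45.2 in untreated cells, 47.3, 41.4 and 44.9 with OHT, 44.2, 42.5 and 47.7 with IACS and 43.6, 41.4 and 44.2 with OHT_IACS. All 4 conditions overlapped for *Cdc20*, with log2 changes between -0.06 and -0.01. *Ube2c*, the ubiquitin-conjugating enzyme of the APC/C, had log2 changes between 0.04 and 0.08 and passed in none.

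All 9 centromere and kinetochore genes had a negative log2 change with IACS-010759, both without OHT (median -0.16) and in primed cells (median -0.18). Negative changes were 77.4% and 86.8% of the 53 genes, and 49.0% and 53.4% of all genes tested. A single gene of the group passed in each comparison, *Cenpa* without OHT and *Cenpi* in primed cells. That is 11.1% of the group, beside 7.74% and 11.8% of all genes tested that were lower. The change without OHT ran from -0.32 ± 0.11 (SE) for *Cenph*, a subunit of the inner kinetochore whose adjusted p was 0.0698, to -0.02 ± 0.04 (SE) for *Nuf2*, a subunit of the NDC80 complex. The other members of that complex, *Ndc80*, *Spc24* and *Spc25*, had log2 changes with IACS alone of -0.18, -0.14 and -0.11, and in primed cells of -0.19, -0.05 and -0.18. *Cenpe*, a kinesin that carries chromosomes to the metaphase plate, and *Cenpf*, a large protein of the outer kinetochore, had -0.12 and -0.16 without OHT and -0.18 and -0.07 in primed cells. In this group 1 gene, *Spc24*, fell with OHT (11.1%, against 18.2% of all genes tested), and none passed between OHT_IACS and IACS (against 26.5%).

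Of the 8 spindle motors and microtubule proteins, 2 passed in any comparison, *Dlgap5* (lower with OHT) and *Kif4*. Each is 12.5% of the group, beside 18.2% of all genes tested lower with OHT and 11.8% lower with IACS-010759 in primed cells. *Kif4* encodes a chromokinesin that also acts on the central spindle. It fell with IACS-010759 in primed cells with a log2 change of -0.20 ± 0.06 (SE, adjusted p = 0.0249), although the libraries overlapped. *Kif11* (Eg5, the kinesin that pushes the spindle poles apart), *Kif18b* and *Kif2c* (kinesins that shorten microtubules), *Kif22* (a chromokinesin), *Tpx2* and *Nusap1* (which bundles spindle microtubules) had log2 changes between -0.13 and 0.15 in the 4 comparisons.

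All 6 central spindle and cytokinesis genes had a positive log2 change with OHT (median 0.12) and a negative one with IACS-010759 in primed cells (median -0.17). Positive changes with OHT were 66.0% of the 53 genes and 52.0% of all genes tested. Negative ones in primed cells were 86.8% and 53.4%. With OHT, *Kif20a* and *Racgap1* rose (33.3%, against 18.2% of all genes tested), the latter by 0.15 ± 0.05 (SE, adjusted p = 0.0335). Their mean RPKM with OHT_IACS and in untreated cells, which were not compared by a test, were 25.99 ± 0.798 (SD, n = 3) and 24.7 ± 0.523 (SD, n = 3) for *Kif20a*. For *Racgap1* they were 29.5 ± 0.805 (SD, n = 3) and 28.6 ± 0.536 (SD, n = 3). *Prc1*, which cross-links the microtubules of the central spindle, and *Ect2*, which activates RhoA at the cleavage furrow, passed in none, with log2 changes between -0.14 and 0.14.

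The condensin and mitotic chromosome genes included the most abundant of the 53. *Top2a*, the topoisomerase that untangles sister chromatids, had an RPKM of 64.2, 60.7 and 61.1 in untreated cells, 69.5, 60.01 and 70.1 with OHT, 67.1, 63.5 and 74.2 with IACS and 69.3, 67.9 and 69.2 with OHT_IACS. Its log2 change was 0.10 ± 0.07 (SE) with OHT and 0.14 ± 0.07 (SE) with IACS alone, and neither passed (adjusted p = 0.310 and 0.232). *Mki67*, the Ki-67 protein that coats mitotic chromosomes and is used as a marker of proliferation, had an RPKM of 50.99, 52.4 and 51.9 in untreated cells, 52.7, 51.9 and 55.7 with OHT, 50.2, 48.6 and 55.4 with IACS and 51.5, 49.6 and 53.1 with OHT_IACS. All conditions overlapped for *Mki67*, with log2 changes between -0.06 and 0.05 and 95% intervals between -0.18 and 0.17. The condensin subunits *Ncapd2*, *Ncapg* and *Ncaph* had log2 changes between -0.16 and 0.07. Of these 3, *Ncapg* fell with IACS-010759 in primed cells (-0.16 ± 0.05 SE, adjusted p = 0.0408).

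Differences between libraries went together with the library total for the more abundant genes. For 24 of the 53 genes, those with at least 0.3 reads per base of length, the median log2 level relative to the untreated mean was 0.12 in OHT replicates 1 and 3, whose totals were 0.776 and 0.805 of that of untreated replicate 1, and -0.02 in OHT replicate 2, with a total of 1.04. The other 29 genes had medians of 0.02 to 0.03 in all 3 OHT libraries. In the genes tested with 0.5 to 1 reads per base, reads grew with the library total with a median slope of 0.594 on log2 scales. The median slope was 0.911 at 0.3 to 0.5 reads per base and 1.204 at 0.1 to 0.3. Of the 24 more abundant genes, 9 had at least 0.5 reads per base, and the others were in the class with a slope of 0.911. A slope under 1 corresponds to a higher RPKM in a smaller library. A fit that added the log2 of the library total gave 4 DEGs with OHT in place of 12, and a median log2 change of 0.01. The share of DEGs among all genes tested also went down in this fit, to 24.1% from 36.4%. Of the 29 less abundant genes, 4 rose and 3 fell with OHT (18.2% of all genes tested in each direction), and their median was 0.02. With IACS-010759 the 29 genes had medians of -0.10 without OHT and -0.08 in primed cells, and the 24 more abundant ones -0.05 and -0.08.

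**Figure D5:**
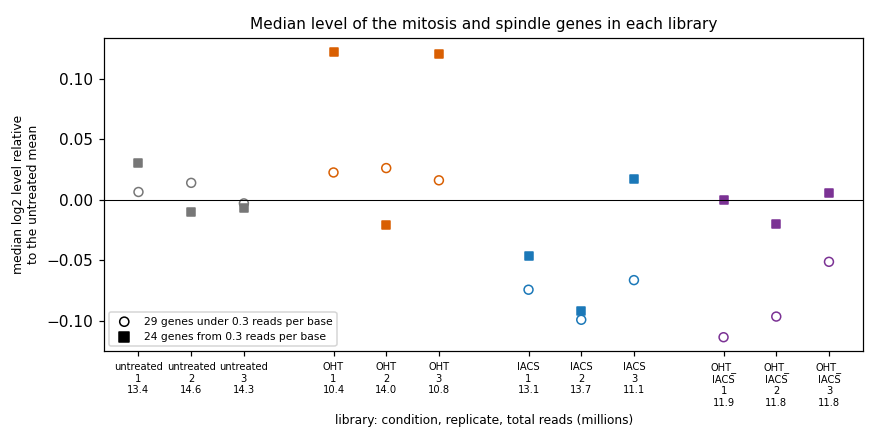
Median log2 level relative to the untreated mean (y axis) in each of 12 libraries (x axis, each with its condition, replicate and total reads), for 29 genes below 0.3 reads per base (open circles) and the 24 from 0.3 (filled squares). The squares of OHT replicates 1 and 3 lie at 0.12 and that of OHT replicate 2 at -0.02, and the circles of all IACS and OHT_IACS libraries lie below 0.

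The counts were also taken apart by TTTGAA in the promoter. With OHT, 5 of the 31 genes with these letters rose and none fell, and 2 of the 13 without them rose and 1 fell, beside 18.2% of all genes tested in each direction. The 9 genes without a matched window were left out, among them *Kif20a*, *Foxm1*, *Spc24*, *Dlgap5* and *Cdca2*. The last 3 of these fell with OHT, so that *Nek2* was the only falling gene that could be counted. With IACS-010759 in primed cells, 6 of 31 and 3 of 13 fell (11.8% of all genes tested), with medians of -0.07 and -0.14. With IACS alone, 2 of 31 and none of 13 fell (7.74% of all genes tested), with a median of -0.07 in both. Between OHT_IACS and IACS, 2 of 31 and 1 of 13 were higher (12.3% of all genes tested). With these numbers the genes with and without the letters were not compared by a test.

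Other genes of mitosis and of its control were counted in the same way. Of 97 further mitotic genes tested, 6 rose and 10 fell with OHT (16.5% in all, against 36.4% of all genes tested). With IACS alone none rose and 12 fell (12.4%, against 7.74% lower among all genes tested). With IACS-010759 in primed cells 4 rose and 14 fell (14.4% lower, against 11.8%), and 7 were higher and 10 lower in OHT_IACS than in IACS (17.5% in all, against 26.5%). The medians ran from -0.07 to 0.00. The largest changes with OHT were those of *Pkmyt1* (log2 change -0.41) and *Cdc25c* (-0.38), an inhibitory kinase and an activating phosphatase of CDK1, and of *Fam64a* (0.32). With IACS alone they were those of *Cenpk* (-0.64), *Cenpp* (-0.49) and *Cit* (-0.47), which encode subunits of the inner kinetochore and citron kinase. In primed cells they were *Ercc6l* (-0.43), *Depdc1a* (-0.42) and *Cenpp* (-0.41), and between OHT_IACS and IACS *Cenpt* (0.47), *Fam64a* (0.39) and *Cit* (0.34). Of the 16 genes of the APC/C and its partners, 3 rose and 1 fell with OHT (25% in all, against 36.4%), 1 fell in each comparison of IACS-010759 (6.25%, against 7.74% and 11.8% lower), and 1 was higher in OHT_IACS than in IACS (6.25%, against 12.3% higher). Of 21 genes of MuvB, the E2F family and the pocket proteins, 3 rose and 2 fell with OHT (23.8% in all, against 36.4%), 1 fell with IACS alone (4.76%, against 7.74%), 2 fell in primed cells (9.52%, against 11.8%) and 2 were lower in OHT_IACS than in IACS (9.52%, against 14.2%). *E2f5* rose with OHT by 0.48 and *Rb1* by 0.38, and *Lin37*, a MuvB subunit, fell by 0.37 on the log2 scale.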

How the data were processed

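Total RNA of FL MycER cells was depleted of ribosomal RNA and sequenced with a strand-specific kit, in 4 conditions of 3 replicates, grouped by the sample titles. The RPKM values that the authors deposited, for each gene in each library, came from featureCounts 1.4.5-p1 counts made after alignment with TopHat2 2.0.8 to mm9 according to the submitters' processing notes. Columns of DESeq2 log2 fold changes, and of its p-values after adjustment, were also deposited and were not used.

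Libraries were scaled by their median ratio over all genes. Genes that reached an RPKM of 1 in 3 or more libraries were compared with limma 3.58.1 (R 4.3.3) on log2(RPKM + 0.1), with a mean-variance trend and 12 libraries in a single fit. Tests were two-sided and Benjamini-Hochberg adjusted over 9745 genes within each of 5 comparisons, with a threshold of 0.05. The fold changes are on the log2(RPKM + 0.1) scale. Reads, gene lengths and library totals were recovered from the steps of the RPKM values, and all 15451 genes above 0 came out as whole reads within 0.0001. Reads had no molecular identifiers, and depth gives counting error only.

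On simulated data of 9713 genes in the same design, 187 of 199 genes with a known change were called, and 6 unchanged ones. The known changes were recovered at a median size of 0.979 on the log2 scale. The spread between replicates was set in the simulation and not taken from these data. No change of the 53 genes exceeded 0.551, so the recovery of changes of their size was not tested.

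The 53 genes, their 8 role groups and the other lists (further mitotic genes, APC/C, MuvB with E2F and pocket proteins, G1/S and replication, CDK inhibitors, and markers of B-lineage, T, macrophage and granulocyte, erythroid, and mast cells) were chosen with earlier results of these data known. Values per library are given for *Ccnb1*, *Cdk1*, *Plk1*, *Aurkb*, *Foxm1*, *Cdc20*, *Cenpa*, *Bub1b*, *Top2a* and *Mki67*, and for the 4 DEGs with the largest change in each comparison (for the interaction, the 4 smallest p-values). *Spc24* and *Kif20b* were added after their values were seen. One of the B-lineage markers chosen at the start is not reported here. Of each other list, the 3 DEGs with the largest change per comparison could be named. Promoters were from RefSeq (GRCm38.p6) and exon overlaps from GENCODE vM21 (GRCm38), neither of which is the build of the counts. Alternatives were other pseudocounts, filters and scalings, the replicate block, no trend, array weights, the compared groups alone, the library total as covariate, voom on the recovered reads, and each library left out. Figures used matplotlib 3.10.9, and tables pandas 2.3.3 under Python 3.11.15.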

Additional observations from a re-analysis of the deposited data

How the results depend on the processing

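Of the 53 genes, no call in the analysis as reported changed sign in any alternative, although the split of calls into higher and lower moved as given with the comparisons. Of 210 values recomputed (counts of DEGs among the 53 genes and their median log2 change), 167 stayed within 1.5 times the reported count or within 0.0278 of the reported median, the SD of library medians between replicates, and 43 moved further. The pseudocounts, the stricter filter, the fit with no mean-variance trend, the replicate block and voom moved none of them, and the causes of the moves below were not tested. With array weights the counts were 29 with OHT alone, 10 with IACS alone, 25 with IACS-010759 in primed cells, 15 between OHT_IACS and IACS, and 4 for the interaction, and the median with OHT was 0.084. In the order of these counts, 57.8%, 28.1%, 43.1%, 39.0% and 10.9% of all genes tested were called in this fit. With the log2 library total as covariate the 4 counts before the interaction were 4, 9, 19 and 11, and the medians with OHT and of the interaction 0.006 and -0.009. Quantile normalization gave 13 DEGs with OHT (5 higher and 8 lower), 6 with IACS alone and 9 between OHT_IACS and IACS, and medians of -0.055 in primed cells and -0.006 for the interaction. Beside these counts it called 38.5%, 21.1% and 31.0% of all genes tested. The fits of only the groups compared gave 6 with IACS alone and 7 between OHT_IACS and IACS (17.6% and 25.7% of all genes tested). No filter gave 1 with IACS alone (8.48% of the genes tested in that fit), and RPKM as deposited gave an interaction median of -0.084. Leaving out 1 library gave 5 to 21 DEGs with OHT, 0 to 2 with IACS alone, 6 to 16 between OHT_IACS and OHT, 4 to 6 between OHT_IACS and IACS, and 0 for the interaction. Of all genes tested, 27.2% to 42.3%, 9.75% to 12.7%, 15.6% to 30.3% and 19.3% to 25.6% were called in the first 4. Chosen after seeing the data, the analysis without OHT replicate 2 and IACS replicate 3 gave 23, 5, 22 and 9. It called 44.5%, 12.9%, 35.1% and 31.7% of all genes tested. The choice of OHT replicate 2 was not settled by the differences between replicates. OHT replicates 1 and 2 differed most (chi-square per gene 1.88), but replicate 1 differed more from replicate 3 (1.38) than replicate 2 did (1.24). Without OHT replicate 1 the count with OHT was 6, beside 31.7% of all genes tested. Also chosen after seeing the data, the 29 genes under 0.3 reads per base gave 7 DEGs with OHT (median 0.019), 1 with IACS alone (median -0.102) and 2 between OHT_IACS and IACS.

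The replicate numbers did not pair the samples, with correlations of same-numbered deviations from -0.172 to 0.104. With the replicate number as a block the counts were 14, 3, 10, 4 and 0, against 12, 3, 10, 4 and 0 without it.

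With 3 replicates the median SE of a log2 change was 0.059, so that small changes were not detectable, and the interaction had a median SE of 0.083.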

Other observations

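Genes of the G1/S transition and of DNA replication act before the mitotic genes in the cycle. Of 49 such genes tested, none rose and 11 fell with IACS alone (22.4% lower, against 7.74% of all genes tested), with a median log2 change of -0.13. In OHT-primed cells 1 rose and 27 fell with IACS-010759 (55.1% lower, against 11.8%), with a median of -0.18. The difference from the mitosis and spindle genes was not tested. Among the falls in primed cells were *Ccne2* and *Ccne1*, which encode the E-type cyclins that drive entry into S phase. *Ccne2* had a log2 change of -0.51 ± 0.09 (SE, adjusted p = 0.00156) and *Ccne1* of -0.36 ± 0.05 (adjusted p = 0.000222). *Rrm2*, a subunit of ribonucleotide reductase, had an RPKM of 44.1 ± 1.36 with OHT and 33.8 ± 0.523 with OHT_IACS (SD, n = 3), a log2 change of -0.38 ± 0.04 (SE, adjusted p = 6.86e-05). With OHT alone, 8 of the 49 genes rose and 4 fell (24.5% in all, against 36.4%). *Pold2*, a subunit of DNA polymerase delta, rose by 0.35 on the log2 scale, while *Cdc7*, a kinase that fires replication origins, and *Tk1*, thymidine kinase, fell by 0.34 and 0.32. Between OHT_IACS and IACS, 4 were higher and 6 lower (20.4% in all, against 26.5%), with a log2 change of -0.45 for *Tk1*. No gene of this list passed the interaction test in limma.

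Of 7 CDK inhibitors, 4 were tested. *Cdkn1a* (p21) rose with OHT by 0.23 on the log2 scale, *Cdkn1b* (p27) fell by 0.23 and *Cdkn2c* (p18) by 0.29. *Cdkn2c* also fell with IACS alone, by 0.29. *Cdkn2b* had a mean RPKM of 0.670 ± 0.179 in untreated cells, 0.482 ± 0.211 with OHT, 1.21 ± 0.056 with IACS and 1.64 ± 0.696 with OHT_IACS (SD, n = 3). Its mean was above the filter of an RPKM of 1 in the conditions with IACS-010759 and below it in the others, so that its call is not given.

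Of the marker lists of other blood cells, 1 of 8 T-cell markers (*Cd3g*), 4 of 6 erythroid markers and 2 of 6 mast cell and basophil markers (*Cpa3* and *Gata2*) reached an RPKM of 1 in any library. The summed RPKM of the erythroid list was 44.1 to 44.2 in untreated cells, 44.5 to 48.0 with OHT, 36.1 to 41.0 with IACS and 38.8 to 41.6 with OHT_IACS. Its members moved in opposite directions. The mean RPKM of *Klf1* was 13.4 ± 0.355 in untreated cells, 9.47 ± 0.475 with OHT, 6.88 ± 0.363 with IACS and 5.07 ± 0.237 with OHT_IACS (SD, n = 3). *Hbb-bs* was at 1.57 ± 0.065 and *Gata1* at 27.4 ± 0.545 in untreated cells, and at 3.62 ± 0.182 and 32.1 ± 0.774 with OHT. The sum of the mast cell and basophil list was 39.4 to 40.1 in untreated cells, 29.8 to 30.6 with OHT, 42.6 to 46.7 with IACS and 44.8 to 49.4 with OHT_IACS. Here too the members differed. In the same order, the mean RPKM of *Gata2* was 34.5, 25.2, 35.5 and 33.5, and that of *Cpa3* was 4.64, 4.69, 7.93 and 12.9.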
